A study of Mus musculus with 6 samples.

Results

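The 10 major urinary protein genes Mup1, Mup3, Mup7, Mup10, Mup11, Mup12, Mup17, Mup20, Mup21 and Mup22 were followed in mouse liver RNA-seq. They were taken by symbol from the deposited gene counts and lie in the Mup cluster on chromosome 4, and they are 10 of the 55487 genes in that table. Another 12 annotated protein-coding Mup genes and 27 Mup pseudogenes were read only for comparison. Livers came from wild-type male C57BL/6J mice on a normal chow diet, taken at 17 weeks of age. Subcutaneous GalNAc-siNC, a control siRNA, was given to 3 mice, and GalNAc-siRnf10, an siRNA against the RING finger gene Rnf10, to 3 other mice. GalNAc is a sugar ligand that hepatocytes take up through the asialoglycoprotein receptor, so the conjugates reach hepatocytes and lower the mRNA without deleting the gene. Each mouse gave 1 library, and the labels put all libraries in the same batch.

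Major urinary proteins are small secreted lipocalins, barrel-shaped proteins that hold hydrophobic ligands. The mouse liver makes them in large amounts, mainly in males, and the kidney passes them into urine, where they bind and slowly release pheromones and act as scent signals themselves. Their transcription in hepatocytes is known to follow the pulsed growth hormone secretion of males, which acts through the growth hormone receptor and the transcription factor STAT5B. The genes arose by repeated duplication, and most of the central copies of the cluster are almost identical.

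How alike they are is visible in a 60-base stretch near the start of the coding sequence, which lies inside 1 exon of every gene shown. It was chosen because no other stretch of that length takes more forms among the 10 genes, and it takes 9. Coordinates are on GRCm38, every gene is on the minus strand, and the bases are written 5′ to 3′ as transcribed. Capitals mark bases that differ from Mup7.

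Mup7 (chr4:60070236-60070295): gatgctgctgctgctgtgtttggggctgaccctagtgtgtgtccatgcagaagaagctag
Mup12 (chr4:60741151-60741210): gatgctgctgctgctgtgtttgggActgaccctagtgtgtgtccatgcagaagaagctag
Mup1 (chr4:60501785-60501844): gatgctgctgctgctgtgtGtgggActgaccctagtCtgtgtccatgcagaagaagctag
Mup17 (chr4:61595696-61595755): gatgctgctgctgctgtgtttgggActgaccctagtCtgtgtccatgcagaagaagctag
Mup10 (chr4:60582024-60582083): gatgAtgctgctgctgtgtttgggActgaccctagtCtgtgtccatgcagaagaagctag
Mup11 (chr4:60662233-60662292): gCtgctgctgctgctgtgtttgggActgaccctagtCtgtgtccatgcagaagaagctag
Mup22 (chr4:60821351-60821410): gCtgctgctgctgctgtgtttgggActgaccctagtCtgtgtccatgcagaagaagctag
Mup20 (chr4:62053982-62054041): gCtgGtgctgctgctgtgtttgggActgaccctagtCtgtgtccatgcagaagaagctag
Mup21 (chr4:62150685-62150744): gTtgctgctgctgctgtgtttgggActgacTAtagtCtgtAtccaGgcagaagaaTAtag
Mup3 (chr4:62087155-62087214): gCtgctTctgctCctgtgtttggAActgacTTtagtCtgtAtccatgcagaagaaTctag

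Mup11 and Mup22 were identical here. Mup12 differed from Mup7 at 1 base, Mup17 at 2 and Mup1, Mup10, Mup11 and Mup22 at 3. Mup20, which encodes the male pheromone darcin, differed at 4 bases, Mup21 at 9 and Mup3 at 10. Over the whole coding sequence, Mup1 and Mup12 shared 99.6% of bases and Mup11 and Mup22 also shared 99.6%. Mup20 was at most 91.3% identical to another of the 10 genes, and Mup3 and Mup21 were 94.9% identical to each other.

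This likeness sets how well a read can be given to 1 gene. The libraries were read in 150-base pairs, so every 150-base window of every GENCODE M21 transcript of these genes was searched in all other annotated transcripts, ignoring the mate. All windows of Mup3 and Mup21 were found in no other gene (100% of each). For Mup20 the share was 68.9%, and its remaining windows were shared with the pseudogene Mup-ps19. It was 59.6% for Mup17, 47.5% for Mup1, 35.2% for Mup11, 32.9% for Mup7, 27.7% for Mup10 and 24.1% for Mup12. No window of Mup22 was found in Mup22 alone, and 91.9% of them also occurred in Mup10. Reads of Mup3 and Mup21 can therefore be told apart from those of other genes, whereas the separate counts of Mup1, Mup7, Mup10, Mup11, Mup12, Mup17 and Mup22 depend on how the counting divided shared reads, which is not given in the sources used here. No exon of the 10 genes overlapped an exon of another annotated gene on either strand.

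**Figure D1:**
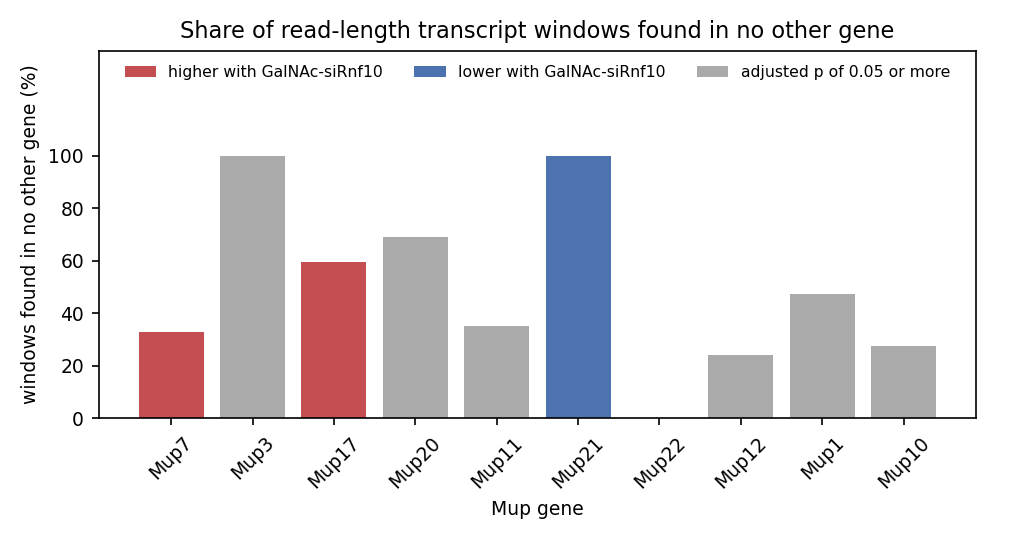
Bars give, for each of the 10 Mup genes (horizontal axis, in order of level with GalNAc-siNC), the percentage of 150-base transcript windows found in no other annotated gene, coloured by the call of the gene. The bars of Mup3 and Mup21 reach 100%, and Mup22 has no bar because its share is 0%.

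Libraries held 26854377 to 33058645 counts, and 14046 genes had enough counts to be tested. The variation between mice of a group was 9.28%, as the biological coefficient of variation over all genes. For genes with a mean of at least 1000 normalized counts, the median coefficient of variation was 7.23% with GalNAc-siNC and 3.01% with GalNAc-siRnf10. GalNAc-siNC mouse 1 stood apart from its group, with a chi-square per gene of 30.6 and 29.8 against the other control mice, which differed by 10.4 from each other, and treated mice by 4.71 to 5.40. Without it, the log2 fold change of the summed Mup count was 0.17 (adjusted p = 0.0339), that of Mup17 0.18 (adjusted p = 0.00109) and that of Mup21 -0.60 (adjusted p = 4.58e-11). Rnf10, the siRNA target, was lower with GalNAc-siRnf10 in every mouse (log2 fold change -1.22, SE 0.0715, adjusted p = 3.29e-09, by the edgeR quasi-likelihood test, adjusted after Benjamini and Hochberg over all tested genes, as is every adjusted p of a gene here). Of the hepatocyte markers, 4 of 8 rose (Alb, Ttr, Cps1 and Cyp2e1) and 0 of 8 had no counts. Asgr1 (log2 fold change 0.11), Apoa1 (0.084), Hnf4a (0.081) and Asgr2 (-0.12) were not called. Over all tested genes 6.71% were called higher and 7.28% lower with GalNAc-siRnf10. The summed normalized count of the 8 was 1693510 to 1801790 with GalNAc-siNC and 2504180 to 2588660 with GalNAc-siRnf10. Most of that sum was Alb, with means of 1159040 and 1805570. Of 5 cholangiocyte markers, only Spp1 was called, and it fell (log2 fold change -0.90, SE 0.070, adjusted p = 8.59e-08). The summed count of the 5 was 2033 to 2073 in control mice and 1122 to 1154 in treated mice. Most of that sum was Spp1, with means of 1836 and 982. Sox9 (-0.54, adjusted p = 0.0555), Krt7 (-0.26, adjusted p = 0.691), Krt19 (-0.20, adjusted p = 0.769) and Epcam (-0.15, adjusted p = 0.822) were not called. Among 7 endothelial markers, Lyve1 (0.55, adjusted p = 0.0414) and Clec4g (0.52, adjusted p = 0.00426) rose, with a list median of 0.16. Stab2 (-0.26) and Cdh5 (-0.25) lay below 0 and were not called. Among 7 stellate cell and fibroblast markers Reln (0.35, adjusted p = 0.0158) and Dcn (0.36, adjusted p = 0.00201) rose, but the list median was -0.20. Lrat (-0.27), Col1a1 (-0.26), Pdgfrb (-0.25) and Des (-0.20) lay below 0 and Col3a1 (0.14) above it, none of them called. Of 4 tested lymphocyte and neutrophil markers only S100a9 was called, and it fell (-1.43, adjusted p = 0.0171). It had 11.5 to 46.4 normalized counts in each mouse, near the filter. Cd4 (-0.24) lay below 0 and Cd79a (0.48) above it, and the list median was -0.15. Cela1, the only tested pancreas or adipose marker, rose (0.58, adjusted p = 0.00698). The salivary and lacrimal glands, other tissues that make Mup proteins, had 6 of 7 markers at 0 counts in every mouse, and the remaining one, Amy1, which is also expressed in liver, rose (0.23, SE 0.059, adjusted p = 0.0130). Whether these marker differences take part in the Mup values was not tested, and in bulk liver fewer cells of a type and less RNA per cell cannot be told apart.

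In control livers Mup7 had the highest mean of all tested genes per kilobase of gene model, just above albumin. Its RPKM, computed here from counts and the deposited gene length, was 15369, 16867 and 18163 in the 3 mice treated with GalNAc-siNC. Albumin had 18063, 15694 and 16287 RPKM in the same mice, so it lay above Mup7 in mouse 1 and below it in the others. Mup3 ranked 6 among all tested genes with a mean RPKM of 8195 ± 463 (SD, n = 3 mice), Mup17 ranked 24 with 2684 ± 312 and Mup20 ranked 33 with 1959 ± 494. Mup11 followed at 536 ± 40.0, Mup21 at 321 ± 35.6, Mup22 at 290 ± 55.1, Mup12 at 139 ± 30.9, Mup1 at 108 ± 13.2 and Mup10 at 26.8 ± 16.4. Mup7 and Mup3 stood clear of the genes below them. Mup17 and Mup20 overlapped between mice, as did Mup21 and Mup22, and Mup12 and Mup1. With GalNAc-siRnf10 the mean RPKM of Mup7 was 20701 and that of albumin 25986. Mup22 then lay above Mup21 in every mouse (352 to 439 against 214 to 223 RPKM). In control mice Mup22 spanned 250 to 352 and Mup21 300.1 to 362 RPKM. No window of Mup22 is its own, so its level depends on how shared reads were divided.

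**Figure D2:**
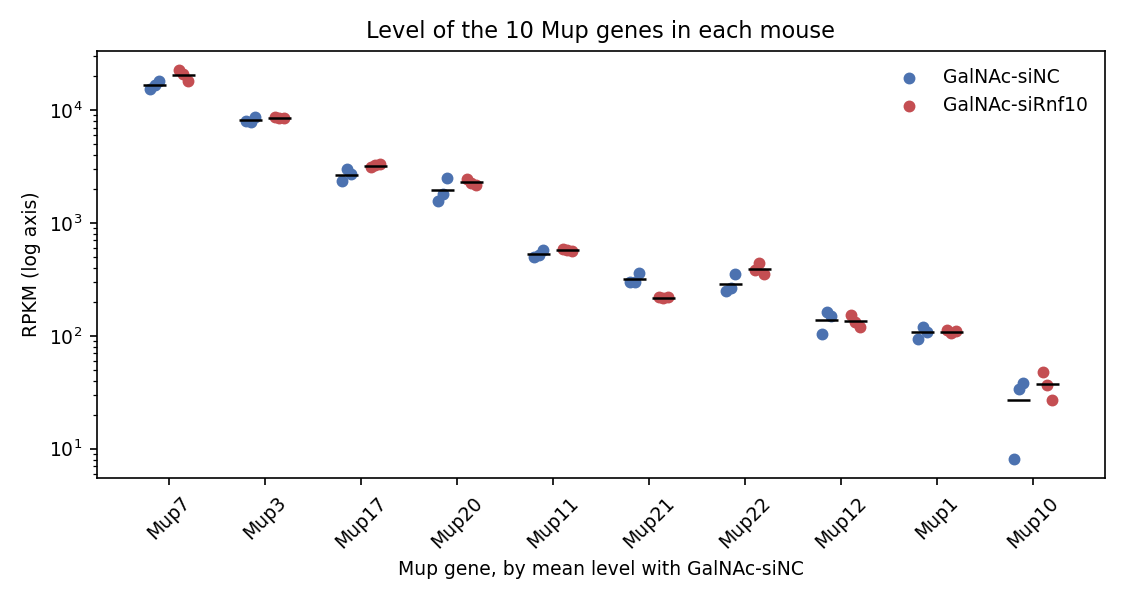
Points give the RPKM of each of the 10 Mup genes in each mouse on a log axis, in blue for GalNAc-siNC and in red for GalNAc-siRnf10, and black lines give the mean of 3 mice. The levels span from Mup7 at 16800 to Mup10 at 26.8 RPKM in control mice, and the groups stand apart for Mup7, Mup17 and Mup21.

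Because reads are shared, the comparison of the treatments was first made on the summed count. The 10 genes together rose by 16.9% with GalNAc-siRnf10. Their summed normalized count (counts scaled to a common library size) was 877460, 945706 and 1030440 in the control mice and 1179390, 1119490 and 1036340 in the treated mice. Every treated mouse lay above every control mouse, but the highest control and the lowest treated mouse almost met. The means were 951202 ± 76638 (SD, n = 3) and 1111740 ± 71838 (SD, n = 3), and the log2 fold change of the sum was 0.22 (SE 0.061, 95% confidence interval 0.095 to 0.35, adjusted p = 0.0225). The exact two-sided permutation test gave p = 0.1, which is as low as 6 mice in 2 groups can give. As a share of all counts, the 10 genes took 3.05% to 3.49% of the control libraries and 3.46% to 3.89% of the treated ones, and these shares overlapped (exact two-sided permutation p = 0.2).

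The rise of the sum was mostly in the counts given to Mup7. Only 32.9% of the windows of Mup7 were found in no other gene, so reads may have been exchanged with other copies. Without the counts given to Mup7, the sum of the other 9 genes was 406493, 428735 and 473818 in control mice. In treated mice it was 484974, 473232 and 473809. These values overlapped, with a log2 fold change of 0.13 (SE 0.053, adjusted p = 0.123). The call on the full sum was also lost without GalNAc-siNC mouse 2 (0.22, adjusted p = 0.230), without GalNAc-siRnf10 mouse 1 (0.18, adjusted p = 0.151) and without GalNAc-siRnf10 mouse 2 (0.22, adjusted p = 0.101). The sum over every annotated Mup gene and pseudogene had a log2 fold change of 0.27 (SE 0.071, adjusted p = 0.0300). A pair of further sums was chosen after seeing the data. The 7 genes that share windows with other Mup genes, summed, had 0.29 (SE 0.073, adjusted p = 0.0232). All 16 protein-coding Mup genes that share windows with each other, summed, had 0.33 (SE 0.087, adjusted p = 0.0411).

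**Figure D3:**
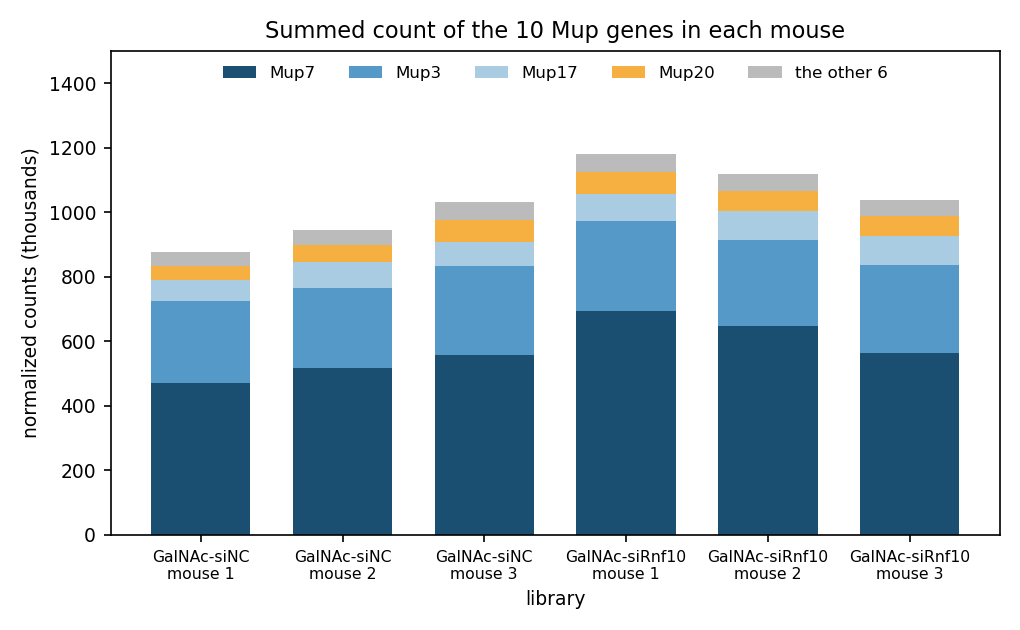
Stacked bars give the summed normalized count of the 10 Mup genes, in units of 1000 counts, in each of the 6 libraries, divided into Mup7, Mup3, Mup17, Mup20 and the other 6. The bars of treated mice run from 1036340 to 1179390 counts and those of control mice from 877460 to 1030440, and most of the difference is in the Mup7 segment.

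Gene by gene, 3 of the 10 changed: Mup7 and Mup17 rose and Mup21 fell. Over all tested genes 14.0% were called, 6.71% as higher and 7.28% as lower with GalNAc-siRnf10. The groups did not overlap for the same 3 of 10 genes, a share close to the 32.8% of all tested genes that did not overlap. Without scaling factors, on total counts alone, all calls split into 747 higher and 1381 lower in place of 943 and 1022, and the calls of Mup7, Mup17 and Mup21 were kept. The log2 fold change was above 0 for 8 of the 10 genes, with a median of 0.18 against 0.0022 over all tested genes. The largest absolute log2 fold change among the 10 was that of Mup21.

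**Figure D4:**
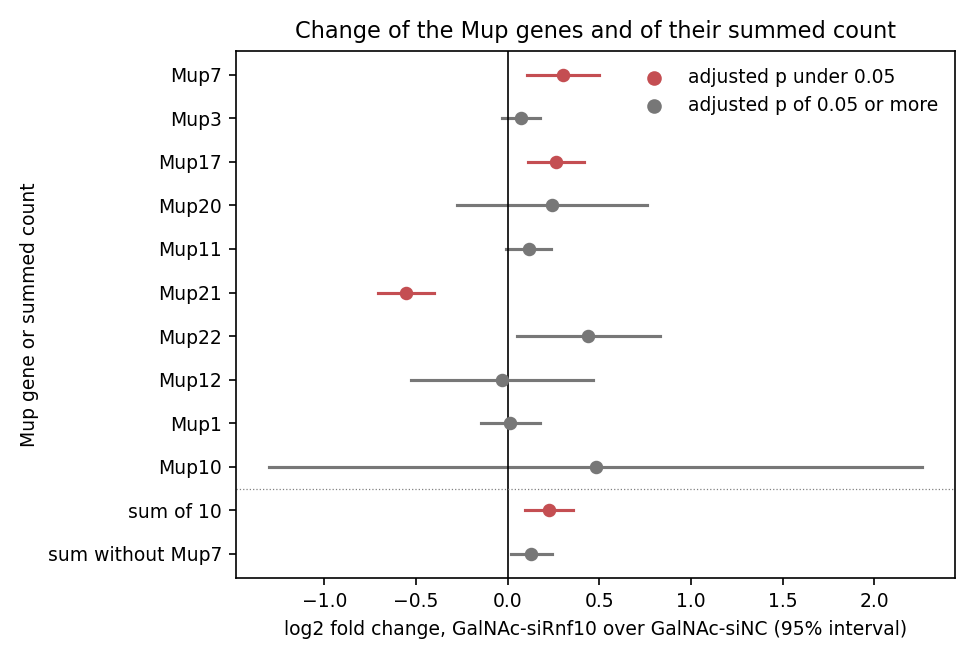
Points give the log2 fold change, GalNAc-siRnf10 over GalNAc-siNC, of each Mup gene and of 2 sums, with its 95% confidence interval as a line, in red where the adjusted p is under 0.05. Mup7, Mup17 and the sum of 10 lie right of 0 and Mup21 left of it, and the widest interval is that of Mup10, from -1.30 to 2.26.

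Mup7, on chr4:60066469-60070475, made up 53.7% to 54.7% of the summed count in control mice and 54.3% to 58.9% in treated mice. Its normalized count was 470991, 516907 and 556636 with GalNAc-siNC and 694408, 646346 and 562467 with GalNAc-siRnf10. All treated mice were higher, but GalNAc-siRnf10 mouse 3 lay just above GalNAc-siNC mouse 3. Mup7 rose by 23.2% (log2 fold change 0.30, SE 0.085, adjusted p = 0.0495), which is close to the threshold. The call was lost without GalNAc-siNC mouse 1 (0.24, adjusted p = 0.303) or mouse 2 (0.30, adjusted p = 0.278), and without GalNAc-siRnf10 mouse 1 (0.23, adjusted p = 0.0986) or mouse 2 (0.29, adjusted p = 0.0975).

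Mup17, on chr4:61591929-61595871, had normalized counts of 64974, 82093 and 74375 with GalNAc-siNC and 85571, 89468 and 91057 with GalNAc-siRnf10. The treated mice were again all above the control mice. It rose by 20.2% (log2 fold change 0.27, SE 0.071, adjusted p = 0.0232). The call was lost without GalNAc-siNC mouse 3 (adjusted p = 0.0641) and without any 1 of the treated mice, with adjusted p of 0.0540 without mouse 1, 0.0893 without mouse 2 and 0.109 without mouse 3. The log2 fold change in these fits lay between 0.25 and 0.29.

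Mup21 lies at the far end of the cluster, on chr4:62147932-62150863 and was the only 1 of the 10 called lower. Its normalized count was 6026, 6031 and 7265 with GalNAc-siNC and 4394, 4305 and 4471 with GalNAc-siRnf10. The treated mice were tightly grouped and all below the control mice. Mup21 fell by 31.8% (log2 fold change -0.55, SE 0.072, 95% confidence interval -0.71 to -0.40, adjusted p = 4.43e-05). Leaving out any 1 mouse gave log2 fold changes from -0.60 to -0.46, and the call held each time. Its share of the summed count was 0.638% to 0.705% in control mice and 0.373% to 0.431% in treated mice, with no overlap. That share had an exact two-sided permutation p of 0.1, and 0.4 after adjustment over the 10 shares.

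Mup3, on chr4:62083476-62087342, is the gene most like Mup21 and the other one with no shared window. It gave 255076, 247828 and 276077 normalized counts with GalNAc-siNC and 277686, 268124 and 272826 with GalNAc-siRnf10, so the groups overlapped. The log2 fold change was 0.072 (SE 0.050, 95% confidence interval -0.033 to 0.18, adjusted p = 0.390). The intervals of Mup3 and Mup21 do not meet. A direct test between the genes was not run.

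Mup20, the darcin gene on chr4:62050234-62054158, had 42848, 49888 and 69104 normalized counts with GalNAc-siNC and 68243, 62791 and 60460 with GalNAc-siRnf10. GalNAc-siNC mouse 3 lay above all treated mice, and the other control mice below them. The log2 fold change was 0.24 (SE 0.20, adjusted p = 0.520), and without GalNAc-siNC mouse 3 it was 0.46 (adjusted p = 0.00132). Mup22, on chr4:60817589-60821463, had 6374, 6813 and 9001 normalized counts with GalNAc-siNC and 9874, 11211 and 8984 with GalNAc-siRnf10. GalNAc-siNC mouse 3 lay just above GalNAc-siRnf10 mouse 3, and below the other treated mice. Its log2 fold change was 0.44 (SE 0.16, unadjusted p = 0.0336, adjusted p = 0.144 by edgeR). Without GalNAc-siNC mouse 3 it was 0.60 (adjusted p = 0.000574), and DESeq2 gave 0.44 with an adjusted p of 0.00243 on all mice.

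Mup11, on chr4:60658466-60662411, had 23565, 24484 and 27166 normalized counts in control mice and 27713, 27229 and 26449 in treated mice. They overlapped, with a log2 fold change of 0.11 (SE 0.058, adjusted p = 0.224). Its share of the summed count was lower in every treated mouse, 2.35% to 2.55% against 2.59% to 2.69%, with the smallest possible exact permutation p of 0.1 and an adjusted value of 0.4. Mup1 (chr4:60498012-60501960) and Mup12 (chr4:60737383-60741326) share 73.9% of the windows of Mup12. Their log2 fold changes were 0.014 (SE 0.076, adjusted p = 0.932) and -0.032 (SE 0.20, adjusted p = 0.941), with 95% confidence intervals of -0.15 to 0.18 and -0.53 to 0.47. The sign of each changed under some settings. Mup10 (chr4:60578260-60582199) varied most between control mice, at 333, 1406 and 1583 normalized counts against 1979, 1521 and 1115 in treated mice. GalNAc-siNC mouse 1 stood far below the other mice, the coefficient of variation of the control group was 61.1%, and the log2 fold change was 0.48 (SE 0.66, adjusted p = 0.717).

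The 10 genes held 80.7% to 88.1% of all counts on annotated Mup genes. Of the other 12 protein-coding Mup genes, 11 were tested, 1 rose and none was called lower, with a median log2 fold change of 0.34. Beside these and the pseudogenes below, 6.71% of all tested genes were called higher and 7.28% lower. Mup8 rose from 2188, 2444 and 2584 normalized counts to 4613, 3755 and 3609 (log2 fold change 0.73, SE 0.093, adjusted p = 0.000101), and 46.1% of its windows were found in no other gene. Mup14 and Mup15 were the most abundant of these. Mup14 had 55619, 56792 and 108611 normalized counts with GalNAc-siNC and 80600, 164369 and 114218 with GalNAc-siRnf10 (log2 fold change 0.70, SE 0.43, adjusted p = 0.398). Mup15 had 35453, 62318 and 77325 against 56366, 70802 and 93681 (0.34, SE 0.38, adjusted p = 0.654). Both differed more between mice of 1 group than between the groups.

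The other coding copies were less abundant. Mup13 was the only one of these not called in which the groups stood apart, with 797, 1458 and 1623 normalized counts in control mice and 1807, 1970 and 1640 in treated mice (log2 fold change 0.48, SE 0.29, adjusted p = 0.382). Mup19 ranged from 5917 to 10566 in control mice and from 2766 to 9769 in treated mice (-0.11, SE 0.58, adjusted p = 0.933). Log2 fold changes were 0.20 (SE 0.17, adjusted p = 0.520) for Mup16 and 0.40 (SE 0.25, adjusted p = 0.396) for Mup18. They were 0.24 (SE 0.22, adjusted p = 0.560) for Mup2 and -0.34 (SE 0.19, adjusted p = 0.323) for Mup9. Mup5, with 0 to 72 raw counts, and Mup6, with 12 to 35, were near the filter, with adjusted p of 0.568 and 0.200. Mup4, with 2 to 12 raw counts in each mouse, was not tested.

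Pseudogenes can take reads from the genes they copy, and 15 of 27 were tested. Mup-ps12, Mup-ps13, Mup-ps14 and Mup-ps19 rose, by log2 fold changes of 0.82 (SE 0.17, adjusted p = 0.00383), 0.55 (SE 0.11, adjusted p = 0.00460), 0.71 (SE 0.21, adjusted p = 0.0291) and 0.45 (SE 0.10, adjusted p = 0.00555). Mup-ps20 fell. Its normalized count was 544, 731 and 797 with GalNAc-siNC and 407, 398 and 347 with GalNAc-siRnf10 (log2 fold change -0.85, SE 0.13, adjusted p = 0.000337). It lies on chr4:62012412-62014857, all its windows were its own (100%), and it was the other Mup sequence besides Mup21 that was called lower. Another 6 pseudogenes had 0 counts in every mouse. The other tested pseudogenes, among them Mup-ps1, Mup-ps2, Mup-ps4, Mup-ps6, Mup-ps7, Mup-ps8, Mup-ps15, Mup-ps16, Mup-ps17 and Mup-ps23, had adjusted p between 0.153 (Mup-ps7) and 0.969 (Mup-ps6). Mup-ps9, Mup-ps10 and Mup-ps11 reached 10 counts in a mouse and were not tested.

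The Mup genes and pseudogenes on chromosome 4 stretch over 2194060 bases, from 59956804 to 62150863, with 48 annotated copies. The pseudogene Mup-ps22, at 0 counts in every mouse, lies on another chromosome. Snx30, a sorting nexin gene and the nearest tested gene before the cluster, fell from 382, 347 and 381 normalized counts to 217, 313 and 252 (log2 fold change -0.50, SE 0.13, adjusted p = 0.0163). Slc31a2, a copper transporter gene and the nearest one after it, had a log2 fold change of 0.15 (SE 0.13, adjusted p = 0.505). Between them, 3 genes outside the family were tested within the cluster. Of these Gm13775, named after its values were seen, rose (log2 fold change 0.65, SE 0.19, adjusted p = 0.0288). Its span, chr4:61783123-61801286, holds that of the pseudogene Mup-ps16 (chr4:61797482-61800237) on the same strand. Whether its reads come from Mup sequence was not tested.

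The stretch before the start of transcription was read for 6 of the 10 genes (Mup3, Mup7, Mup10, Mup11, Mup17 and Mup21), from RefSeq promoter sequences on GRCm38.p6. The 250 bases before the annotated start are printed for the 3 genes that changed and for Mup3, the gene most like Mup21, all from the minus strand. Capitals mark matches of TATATAA and ATCAATA, letters chosen after the windows had been read.

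Mup21 (chr4:62150842-62151091): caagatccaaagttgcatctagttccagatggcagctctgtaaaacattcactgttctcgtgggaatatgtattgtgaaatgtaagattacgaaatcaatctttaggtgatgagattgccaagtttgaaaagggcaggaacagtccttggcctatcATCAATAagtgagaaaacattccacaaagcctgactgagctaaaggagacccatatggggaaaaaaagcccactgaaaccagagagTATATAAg
Mup3 (chr4:62087318-62087567): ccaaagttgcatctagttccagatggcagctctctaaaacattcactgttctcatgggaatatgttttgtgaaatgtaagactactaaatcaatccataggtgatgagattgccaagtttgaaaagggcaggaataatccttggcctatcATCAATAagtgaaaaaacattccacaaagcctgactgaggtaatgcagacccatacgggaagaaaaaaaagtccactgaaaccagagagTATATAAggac
Mup17 (chr4:61595833-61596082): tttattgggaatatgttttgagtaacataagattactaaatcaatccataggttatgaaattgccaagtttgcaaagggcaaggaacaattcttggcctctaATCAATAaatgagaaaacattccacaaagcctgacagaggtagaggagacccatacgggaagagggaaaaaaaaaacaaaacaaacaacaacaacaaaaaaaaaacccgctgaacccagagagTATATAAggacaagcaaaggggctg
Mup7 (chr4:60070476-60070725): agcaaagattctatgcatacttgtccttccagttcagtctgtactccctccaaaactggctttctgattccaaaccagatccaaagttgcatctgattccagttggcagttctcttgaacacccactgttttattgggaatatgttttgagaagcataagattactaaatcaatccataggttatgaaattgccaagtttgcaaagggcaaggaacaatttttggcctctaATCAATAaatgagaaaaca

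The windows of Mup3 and Mup21 were 89.2% identical, although Mup21 fell and Mup3 was not called. The highest value among the 6 windows was that of Mup10 and Mup17, at 90.4%. Whole windows were compared, each cut at its own annotated start, so an offset between starts lowers these values. They are therefore no ranking of how alike the promoters are. ATCAATA, on either strand, was in all 6 windows (6 of 6) and in 1.86% of 32851 RefSeq promoter windows of the same length. It lay at different distances from the annotated start, beginning 94 bases before it in Mup21, 100 in Mup3, 148 in Mup17 and 19 in Mup7. TATATAA began 8 bases before the annotated start in Mup21, 11 in Mup3 and 25 in Mup17. The spacing of both matches was thus wider in Mup17 than in Mup3 and Mup21, so the annotated start is not all of that shift. TATATAA, whose reverse complement TTATATA overlaps it in Mup10, was in 4 of 6 windows, those of Mup3, Mup10, Mup17 and Mup21, and in 3.04% of all windows. The window of Mup7 ended before the stretch that holds it in Mup17, and the window of Mup11 ended inside that stretch. Whether Mup7 and Mup11 hold TATATAA there was therefore not read. TTCNNNGAA, the core that STAT5 binds and its own reverse complement, was in 0 of 6 windows and in 7.02% of all windows. The 6 windows belong to duplicated genes and are not independent, and TATATAA and ATCAATA were chosen from them. Setting their counts beside the shares of all windows is therefore no test. All of these are matches of letters only, and no binding was measured here.

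The growth hormone receptor and STAT5 genes, the pathway known to drive Mup transcription, moved in both directions. Of 14 genes tested, 4 rose and 4 fell, with a median log2 fold change of -0.12. For this list and those below, the shares over all tested genes were 6.71% called higher and 7.28% called lower. Ghr, the receptor, rose slightly (log2 fold change 0.20, SE 0.061, adjusted p = 0.0351). Stat5b fell from 1673, 1734 and 1675 normalized counts to 1334, 1368 and 1273 (-0.35, SE 0.070, adjusted p = 0.00214), and Stat5a, its close relative, fell as well (-0.71, SE 0.11, adjusted p = 0.000287).

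Genes that growth hormone is known to induce through STAT5 were split too. Igf1, the hormone that carries much of the growth signal, rose (log2 fold change 0.22, SE 0.055, adjusted p = 0.0125), as did Igfbp3, which binds it in blood (1.01, SE 0.15, adjusted p = 0.000171). Among the feedback inhibitors of the receptor, Socs2 rose from 555, 447 and 361 to 900, 806 and 840 normalized counts (0.90, SE 0.13, adjusted p = 0.000272). Cish fell from 1055, 1099 and 1017 to 519, 460 and 468 (-1.13, SE 0.086, adjusted p = 6.77e-08), and Socs3, which cytokines induce as well, fell (-1.37, SE 0.15, adjusted p = 0.000134).

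Of 19 tested regulators of Mup transcription in hepatocytes, 1 rose and 3 fell, with a median of -0.061. Trim24, a transcriptional cofactor, rose (log2 fold change 0.59, SE 0.089, adjusted p = 0.000196). The forkhead factors Foxa1 (-0.81, SE 0.094, adjusted p = 1.16e-05) and Foxa2 (-0.53, SE 0.098, adjusted p = 0.00135), which open liver chromatin, fell, as did the estrogen receptor Esr1 (-0.35, SE 0.085, adjusted p = 0.0101).

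Sex-biased liver genes were read because Mup transcription is male-biased. All 20 male-biased genes were tested, of which 7 rose and 6 fell, with a median of 0.047. Gstp1, a glutathione transferase, rose most (log2 fold change 0.84, SE 0.15, adjusted p = 0.0229), followed by Ugt2b1 (0.52, SE 0.057, adjusted p = 5.29e-06), Cyp4a12a (0.48, SE 0.063, adjusted p = 4.93e-05) and Keg1 (0.43, SE 0.056, adjusted p = 4.27e-05). Cyp4a12b, Cyp2d9 and Slco1a1 rose by 0.27 (SE 0.078, adjusted p = 0.0297), 0.25 (SE 0.049, adjusted p = 0.00220) and 0.23 (SE 0.061, adjusted p = 0.0180), close to the log2 fold changes of Mup7 and Mup17. Moxd1 fell most (-1.28, SE 0.069, adjusted p = 1.24e-09). The complement genes C8a (-0.42, SE 0.059, adjusted p = 9.05e-05), C6 (-0.34, SE 0.057, adjusted p = 0.000526) and C8b (-0.29, SE 0.054, adjusted p = 0.00151) fell, and so did Cyp2u1 (-0.32, SE 0.075, adjusted p = 0.00894) and Cyp7b1 (-0.19, SE 0.056, adjusted p = 0.0310).

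Only 8 of 20 female-biased genes passed the filter on low counts, and 5 of them were called higher. Of these, Cyp2a4 and Cyp2b10 passed through the treated mice alone, so the filter favoured their rise. Cyp2a4 had 3.19 ± 2.50 normalized counts in control mice and 24.8 ± 6.18 in treated mice (SD, n = 3). Cyp2b10 had 15.2 ± 8.63 and 77.8 ± 8.16. Neither the count of 5 nor the median of 1.29 is therefore a value for the whole list. Acot3 went from 18.2 to 94.0 normalized counts on average (log2 fold change 2.36, SE 0.27, adjusted p = 1.15e-05). The more abundant Fmo2 (1.21, SE 0.13, adjusted p = 5.04e-06) and Cyp39a1 (1.37, SE 0.12, adjusted p = 4.85e-07) rose as well. Both remained far below the Mup genes, at 3.33 and 8.08 RPKM on average with GalNAc-siRnf10. Tox (0.68) lay above 0 and Cyp17a1 (-0.13) and Prom1 (-0.75) below it, none of them called.

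Of 9 tested lipocalins outside the Mup family, 1 rose and 5 fell, with a median of -0.38. Lcn2, which binds bacterial iron carriers and rises in inflammation, fell from 15100, 15214 and 16309 normalized counts to 5809, 5929 and 5448 (log2 fold change -1.44, SE 0.059, adjusted p = 2.46e-11). The acute-phase orosomucoids Orm1 (-0.68, SE 0.11, adjusted p = 0.00457), Orm2 (-1.30, SE 0.081, adjusted p = 9.08e-08) and Orm3 (-0.51, SE 0.15, adjusted p = 0.0293) fell, although these copies also resemble each other and their separate counts are uncertain. Ambp, the precursor of the plasma protein alpha-1-microglobulin, fell by 0.38 on the log2 scale (SE 0.060, adjusted p = 0.000330). Rbp4, the retinol carrier of plasma, rose (0.60, SE 0.11, adjusted p = 0.0169).

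Among 14 tested genes of other abundant secreted liver proteins, 6 rose and 4 fell, with a median of 0.17, close to the 0.18 of the Mup genes. Ttr, the thyroid hormone carrier (0.66, SE 0.12, adjusted p = 0.0138), Alb, serum albumin (0.64, SE 0.051, adjusted p = 1.40e-07), Serpina1c (0.44, SE 0.11, adjusted p = 0.0357), Serpina1a (0.21, SE 0.053, adjusted p = 0.0117), Apoh (0.18, SE 0.050, adjusted p = 0.0205) and Ahsg (0.15, SE 0.045, adjusted p = 0.0333) rose. Fgb, a chain of fibrinogen (-0.83, SE 0.045, adjusted p = 1.24e-09), Hpx, the heme carrier (-0.51, SE 0.054, adjusted p = 4.51e-06), Vtn (-0.29, SE 0.050, adjusted p = 0.000721) and the iron carrier Trf (-0.20, SE 0.043, adjusted p = 0.00408) fell. The changes of Mup7 and Mup17 were thus smaller than those of albumin and transthyretin.

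**Figure D5:**
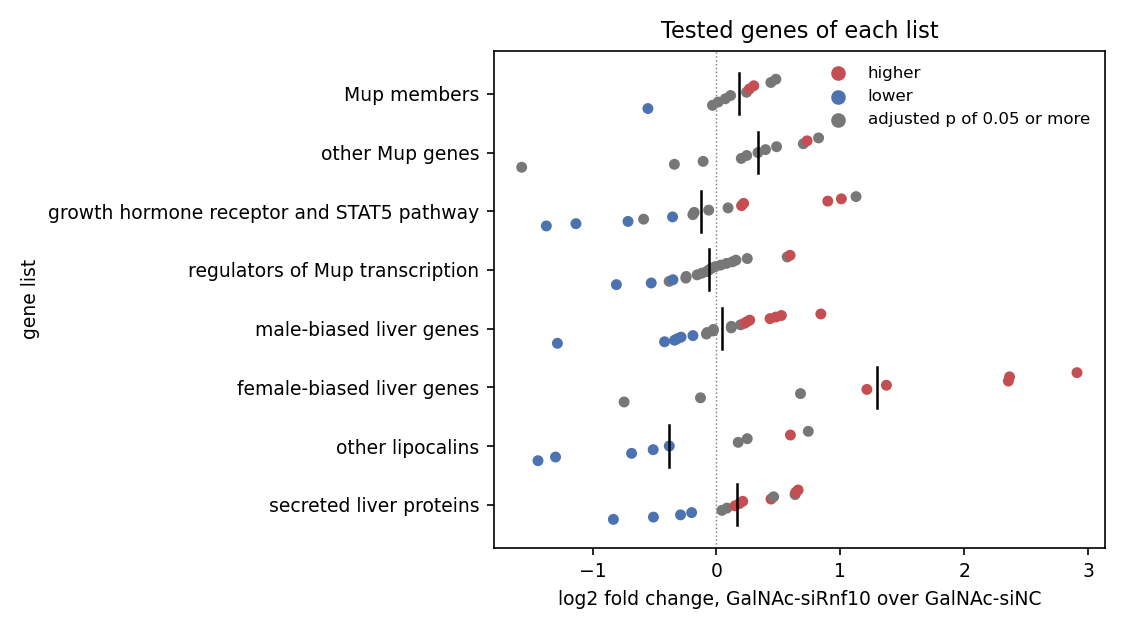
Points give the log2 fold change, GalNAc-siRnf10 over GalNAc-siNC, of each tested gene of 8 lists, in red where higher, blue where lower and grey where the adjusted p is 0.05 or more, and black lines give each list's median. The Mup medians of 0.18 and 0.34 lie right of 0; that of the female-biased genes is over the 8 of 20 that passed the filter on low counts.

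The genes whose pattern over the 6 mice was most like that of the summed Mup count were found by the root mean square difference of centred log2 CPM (library-scaled counts). Of 10917 candidate genes outside the family, with a mean of at least 50 normalized counts, the 5 closest were Abhd6, a monoacylglycerol lipase (0.0311), Sirt3, a mitochondrial deacetylase (0.0312), Prelid3b (0.0324), Fbxl21 (0.0330) and the antisense RNA gene Tbx3os1 (0.0339). A gene with the same level in all mice would have had 0.142. Abhd6 had 847, 860.2 and 953 normalized counts with GalNAc-siNC and 1072, 1031 and 940.4 with GalNAc-siRnf10, so its groups overlapped where those of the summed Mup count did not. Their adjusted p ran from 0.0782 (Sirt3) to 0.247 (Fbxl21).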

How the data were processed

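The deposited file holds raw counts per gene, made by the authors from paired-end reads of stranded mRNA libraries mapped to GRCm38 with HISAT2, without normalization. Counting tool, annotation release, strand and multi-mapping settings are not given in the sources used here. The table also gives each gene's length. Groups came from the labels, with 3 mice each. p-values measure the spread between these mice. Total counts were 26854377 to 33058645 per library, and a floor of 3 counts is at most 1.12e-05% of a library, covering counting error only.

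The members and gene lists were chosen with earlier results of these data known. Counts were analysed in R 4.3.3 with edgeR 4.0.16 (filterByExpr with a minimum count of 10, TMM, robust quasi-likelihood F-test, Benjamini-Hochberg adjustment over 14046 genes, threshold 0.05). RPKM used TMM-scaled libraries and the deposited length. Intervals cover 95%. Alternatives were other normalizations and filters, DESeq2 1.42.0, limma 3.58.1 (voom), a replicate block, other sums and leaving out each mouse. The test was checked on simulated counts. Named genes were the 10 Mup genes, the other Mup genes with at least 10 counts in a mouse, the called genes of each list, the 5 genes most like the sum, the nearest tested genes beside the cluster and Rnf10. Of the cell-type markers and the female-biased genes, the called ones and some uncalled ones of the same lists were named. Symbols and transcripts came from GENCODE M21 and promoters from RefSeq (GRCm38.p6), and 346 of 55487 identifiers had no symbol. Tables and figures were made with Python 3.11.15, numpy 2.4.6, pandas 2.3.3, scipy 1.17.1 and matplotlib 3.10.9.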

Additional observations from a re-analysis of the deposited data

How the results depend on the processing

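The fall of Mup21 held under all 14 alternatives, with log2 fold changes from -0.60 to -0.46. Mup7 was called in 9 of 14 and Mup17 in 10 of 14, and neither changed sign. The summed count stayed positive in 18 of 18 alternatives and was called in 13. These include the pair of sums chosen after seeing the data, both of which were called, so the count of 13 leans on them in part. It was not called with the replicate block (0.226, adjusted p = 0.0750), in which 2 Mup genes and 1816 genes in all were called and Mup7 was not (0.299, adjusted p = 0.142), or without Mup7 (0.130, adjusted p = 0.123). Without 1 mouse at a time the sum ranged from 0.169 to 0.283, the Mup genes called from 1 to 4 and all genes called from 1053 to 2864. The cause was not tested.

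Same-numbered mice showed no shared deviation from their group means. Their deviations correlated at -0.000993, 0.0272 and -0.0337, and not every mouse correlated best with its own number. Whether the animals were paired in some way cannot be told from these values. Mup1 was -0.032 on total counts alone, -0.0099 with limma voom, -0.076 without GalNAc-siNC mouse 1 and -0.0040 without GalNAc-siRnf10 mouse 1. Over the fits without 1 mouse, Mup1 ranged from -0.076 to 0.10 and Mup12 from -0.21 to 0.091. Mup12 was 0.091 without GalNAc-siNC mouse 2, 0.030 without GalNAc-siNC mouse 3 and 0.046 without GalNAc-siRnf10 mouse 3. Mup22 was called in 4 of 14 alternatives and Mup20 in 1 of 14. Shared reads limit the separate values of near-identical copies, and 3 mice a group limit the permutation tests, whose smallest p was 0.1.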
